A study of Mus musculus with 21 samples.

Results

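The 6 genes described here encode metabotropic glutamate receptors and were taken by their symbols (Grm2, Grm3, Grm4, Grm5, Grm7 and Grm8) from a table of 48474 gene rows, of which 18248 held enough reads to be tested. All 6 were among the genes tested. Bulk RNAseq was done on the neocortex of 21 mice, 11 wild-type and 10 rNLS8 mice. The rNLS8 mice (genotype TG in the labels) carry the bigenic combination NEFH-tTA and tetO-hTDP-43ΔNLS, so that human TDP-43 without its nuclear localization signal is made under the neurofilament heavy chain promoter, almost only in neurons. The control mice, labelled WT, were monogenic littermates. All 21 mice, controls included, had been injected into a ventricle of the brain with 350 µg of non-targeting antisense oligonucleotide (10 µL) when 17 to 19 weeks old. Doxycycline at 200 mg/kg of food held the transgene off until 2 weeks after that injection, and tissue was taken 3 weeks after its withdrawal. The mice formed 2 batches, A with 4 wild-type and 3 rNLS8 mice and B with 7 of each genotype. The sex of each mouse is not stated.

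Metabotropic glutamate receptors are class C G protein-coupled receptors that bind the transmitter glutamate and set the strength of synapses more slowly than the ion channel receptors do. Group I receptors, here Grm5, sit mainly beside the postsynaptic density, couple to Gq and phospholipase C, and are tied to the scaffold by Homer proteins. Group II (Grm2 and Grm3) and group III (here Grm4, Grm7 and Grm8) couple to Gi/o proteins and lie largely on presynaptic terminals, where they reduce transmitter release. Grm3 is also a receptor of astrocytes, and Grm7 and Grm8 are held at the active zone by adhesion proteins of the Elfn family on the opposite side of the synapse.

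The total count per mouse ranged from 20700912 to 22263809 reads. The neocortical markers Tbr1, Cux2, Rorb and Fezf2 were all detected in every mouse, with a summed level of 5181 to 6736 normalized counts in wild-type and 5039 to 6354 in rNLS8 mice. Normalized counts are read counts scaled to a common effective library size. The labels call the tissue neocortex and the methods brain cortex, while the legend of a figure in the study names hippocampus. Transcripts of neighboring regions were present to a varying degree, with summed striatal markers (Drd1, Adora2a and Rgs9) between 642 and 6206 normalized counts in wild-type and between 735 and 5359 in rNLS8 mice. The rNLS8 mice T61340 and T60303, both of batch A, stood apart from the other libraries in an earlier analysis of these data. In T61340, the deviation of a gene from the other mice of its genotype fell with exon length (Spearman's rho of -0.48 across 16149 genes, against -0.18 to 0.33 in the other 20 mice, given as a description). By this measure T60303, at -0.09, did not stand apart. The fold change of each receptor is therefore also given without both mice, and the calls of the other genes named are given without them where they changed.

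In rNLS8 mice, 4 of the 6 receptor transcripts were lower, namely the 3 examined here of group III (Grm4, Grm7 and Grm8) and the group II receptor Grm3. Grm2 and Grm5 did not pass the threshold, which was an adjusted p-value of 0.05 in edgeR's quasi-likelihood test with genotype and batch in the model. None of the 6 was called higher. Across all genes tested, 44.7% were called in either direction, 21.7% lower and 23% higher, so calls in themselves were frequent in these mice. The median log2 fold change was -0.45 over the 6 receptors and -0.00067 over all 18248 genes. For no receptor did every rNLS8 mouse lie below every wild-type mouse, an order that 3.8% of all genes showed. In bulk tissue, fewer cells that express a receptor and less receptor RNA per cell cannot be told apart.

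**Figure D1:**
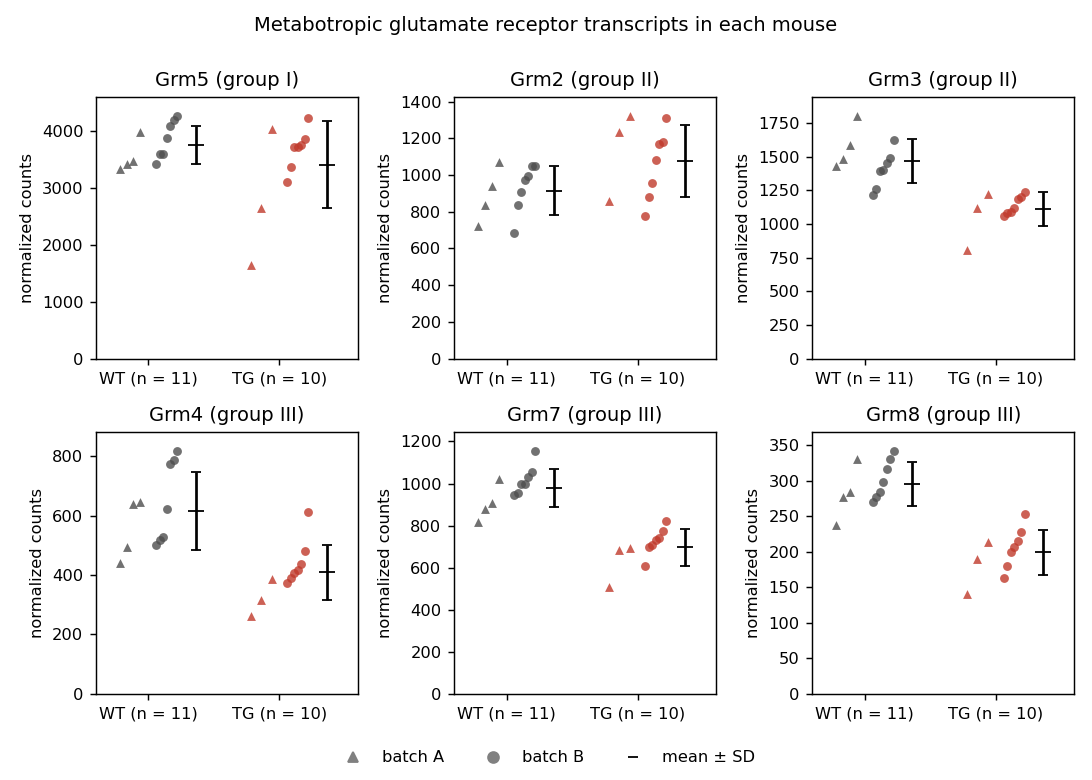
Normalized counts of each receptor in every mouse, with wild-type (WT) in grey and rNLS8 (TG) in red, batch A as triangles, batch B as circles, and the mean ± SD beside each group. For Grm3, Grm4, Grm7 and Grm8, 8 or 9 of the 10 rNLS8 mice lie below all 11 wild-type mice, while for Grm2 6 rNLS8 mice lie above all wild-type mice and for Grm5 3 lie below them.

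The sequences around the gene starts are shown because 4 of the receptors fell together and Grm2 did not. Windows of 300 bases, from 250 before to 50 after the annotated start, were matched for 4 of the 6 genes in RefSeq (GRCm38.p6). They are the windows of Grm2 (chr9:106656060-106656359, minus strand), Grm3 (chr5:9725303-9725602, minus strand), Grm7 (the first of 2 starts, chr6:110645262-110645561, plus strand) and the most upstream of 3 starts of Grm8 (chr6:28135097-28135396, minus strand). Each is written 5′ to 3′ in the direction of the gene, and capitals mark the GC box GGGCGG, the binding motif of Sp family factors, and the CCAAT box, each searched on both strands.
Grm2 promoter: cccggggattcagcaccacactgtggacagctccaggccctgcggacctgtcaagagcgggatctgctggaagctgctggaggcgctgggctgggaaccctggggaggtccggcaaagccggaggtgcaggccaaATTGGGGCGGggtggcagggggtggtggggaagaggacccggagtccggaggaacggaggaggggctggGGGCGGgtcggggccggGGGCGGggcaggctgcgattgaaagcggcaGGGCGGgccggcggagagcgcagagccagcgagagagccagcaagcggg
Grm3 promoter: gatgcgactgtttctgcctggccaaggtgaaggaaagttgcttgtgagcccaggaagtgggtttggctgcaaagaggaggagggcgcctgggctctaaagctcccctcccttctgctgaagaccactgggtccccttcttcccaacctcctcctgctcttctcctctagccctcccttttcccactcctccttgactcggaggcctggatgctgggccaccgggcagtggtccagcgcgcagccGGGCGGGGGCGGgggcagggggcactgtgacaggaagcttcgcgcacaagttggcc
Grm7 promoter: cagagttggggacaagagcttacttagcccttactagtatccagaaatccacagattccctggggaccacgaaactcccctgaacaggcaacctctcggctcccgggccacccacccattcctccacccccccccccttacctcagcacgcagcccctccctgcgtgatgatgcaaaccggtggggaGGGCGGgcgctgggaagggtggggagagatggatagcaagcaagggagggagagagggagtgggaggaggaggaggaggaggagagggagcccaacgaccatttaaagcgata
Grm8 promoter: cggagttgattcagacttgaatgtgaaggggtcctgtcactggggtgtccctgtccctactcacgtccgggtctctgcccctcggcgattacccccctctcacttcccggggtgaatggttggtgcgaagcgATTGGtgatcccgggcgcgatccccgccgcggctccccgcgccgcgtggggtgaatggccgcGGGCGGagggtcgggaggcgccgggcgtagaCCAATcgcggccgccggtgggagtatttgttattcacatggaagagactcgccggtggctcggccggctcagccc

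The printed windows had a G and C content of 72.0% for Grm2, 63.7% for Grm3, 61.0% for Grm7 and 67.0% for Grm8, against a median of 52.7% over all 32851 windows of this kind. GGGCGG was found 4 times in the window of Grm2, 2 times in that of Grm3, and 1 time each in those of Grm7 and Grm8. It was present in 35.7% of all windows. CCAAT was found 1 time in Grm2, where it overlaps the first GC box by 1 base, and 2 times in Grm8, and was not in the windows of Grm3 and Grm7, whereas 37.4% of all windows held it. TATAAA was in none of these 4 windows (13.6% of all windows), nor was the full cAMP response element TGACGTCA (1.79% of all windows). The table gives a second start for Grm7, whose window overlaps the first, with 66.7% G and C and 1 GC box, and 2 further starts for Grm8, whose windows had 54.0% and 43.3% G and C and no GC box. At the starts printed above, the GC box was thus found both in Grm2, which was not lower, and in the 3 lower receptors.

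Grm5 encodes mGluR5, the group I receptor of the forebrain and the partner of Homer scaffolds. The gene spans chromosome 7 from 87584168 to 88134907 on the plus strand of GRCm38 (GENCODE M21). In wild-type mice, the lowest, median and highest values were 3331, 3598 and 4258 normalized counts, and in rNLS8 mice they were 1642, 3714 and 4217. The rNLS8 median was thus not below the wild-type median, and 3 of 10 rNLS8 mice were below all wild-type mice. These were T61340 at 1642, T60303 at 2649 and a mouse of batch B at 3108 normalized counts. Wild-type mice had a mean of 3746 ± 340 (SD, n = 11), and rNLS8 mice of 3403 ± 769 (SD, n = 10). The log2 fold change was -0.16 (standard error 0.10, 95% interval -0.37 to 0.04), which did not pass the threshold (adjusted p = 0.193 with edgeR). Without T61340 and T60303 it was -0.02 (adjusted p = 0.805 with edgeR). A single omission changed the call, since without the rNLS8 mouse T61342 of batch A, at 4023 normalized counts, it was -0.24 (adjusted p = 0.0426 with edgeR). In batch A the mean was 3551 normalized counts in wild-type and 2771 in rNLS8 mice, and in batch B it was 3858 and 3674. Among the receptors, Grm5 had the lowest relative spread in wild-type mice with a standard deviation of 9.07% of the mean, but 22.6% in rNLS8 mice, where the counts alone would give 1.67% over all mice.

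Grm2 encodes mGluR2, the presynaptic group II autoreceptor. It is the one compact gene among the 6, with 13.0 kb on chromosome 9 from 106643095 to 106656082 (minus strand), whereas the others span 99.0 to 921.7 kb. Wild-type mice had 683, 941 and 1073 normalized counts (lowest, median and highest) and rNLS8 mice 776, 1125 and 1321. Of the rNLS8 mice, 6 of 10 lay above all wild-type mice, and 3 lay below the wild-type median. The means were 915 ± 132 (SD, n = 11) and 1077 ± 197 (SD, n = 10), a log2 fold change of 0.24 (standard error 0.098, 95% interval 0.03 to 0.44). This missed the threshold narrowly (adjusted p = 0.0534, unadjusted p = 0.0242 with edgeR). The call of Grm2 depended on the processing, as it passed in 5 of the 17 alternative analyses and on leaving out any of 7 single mice, among them T60303 (0.28, adjusted p = 0.0258 with edgeR), while without T61340 it was 0.19 (adjusted p = 0.115 with edgeR). Without T61340 and T60303 the log2 fold change was again 0.24 (adjusted p = 0.0660 with edgeR). In batch A the means were 894 normalized counts in wild-type and 1138 in rNLS8 mice, and in batch B 927 and 1051.

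Grm3 encodes mGluR3, the second group II receptor, present on neurons and astrocytes and activated by the peptide transmitter N-acetylaspartylglutamate as well as by glutamate. It lies on chromosome 5 from 9485541 to 9725170 (minus strand). Its lowest, median and highest values were 1216, 1450 and 1801 normalized counts in wild-type and 803, 1118 and 1239 in rNLS8 mice. The groups touched only at their edges: 8 of 10 rNLS8 mice were below all wild-type mice, and 10 of 11 wild-type mice were above all rNLS8 mice. With means of 1466 ± 163 (SD, n = 11) and 1111 ± 126 (SD, n = 10), the rNLS8 level was 75.8% of wild-type. The log2 fold change was -0.40 (standard error 0.070, 95% interval -0.54 to -0.25, adjusted p = 5.35e-05 with edgeR). T61340 had the lowest value, at 803 normalized counts against 1055 in the next rNLS8 mouse. Without T61340 and T60303 the log2 fold change was -0.31 (adjusted p = 9.32e-05 with edgeR). The mean fell from 1574 to 1047 normalized counts in batch A (log2 fold change -0.57) and from 1404 to 1139 in batch B (log2 fold change -0.31), and passed the threshold in each batch alone (adjusted p = 0.0309 and 0.000380 with edgeR).

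The balance of Grm2 to Grm3 within group II differed between the genotypes, although of these genes only Grm3 was called on its own. The log2 ratio of Grm2 to Grm3 counts within a mouse ranged from -1.31 to -0.21 in wild-type and from -0.67 to 0.72 in rNLS8 mice. In 6 of 10 rNLS8 mice it was above all wild-type mice. Wild-type mice averaged -0.69 ± 0.31 (SD, n = 11) and rNLS8 mice -0.06 ± 0.39 (SD, n = 10). The difference within batches was 0.63 on the log2 scale (exact two-sided permutation of genotype within batch over 120120 arrangements, p = 0.000516, adjusted over the 4 pairs of receptors compared, p = 0.00206). It was 0.57 without T61340 and T60303 (adjusted p = 0.00839, exact permutation). In batch B alone it was 0.47 (adjusted p = 0.0443, exact permutation), and in batch A alone it was 0.94 (adjusted p = 0.114, exact permutation), where 4 mice against 3 cannot give an unadjusted p below 0.0286. The sum of both group II transcripts was 2381 ± 175 normalized counts in wild-type and 2188 ± 181 in rNLS8 mice.

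**Figure D2:**
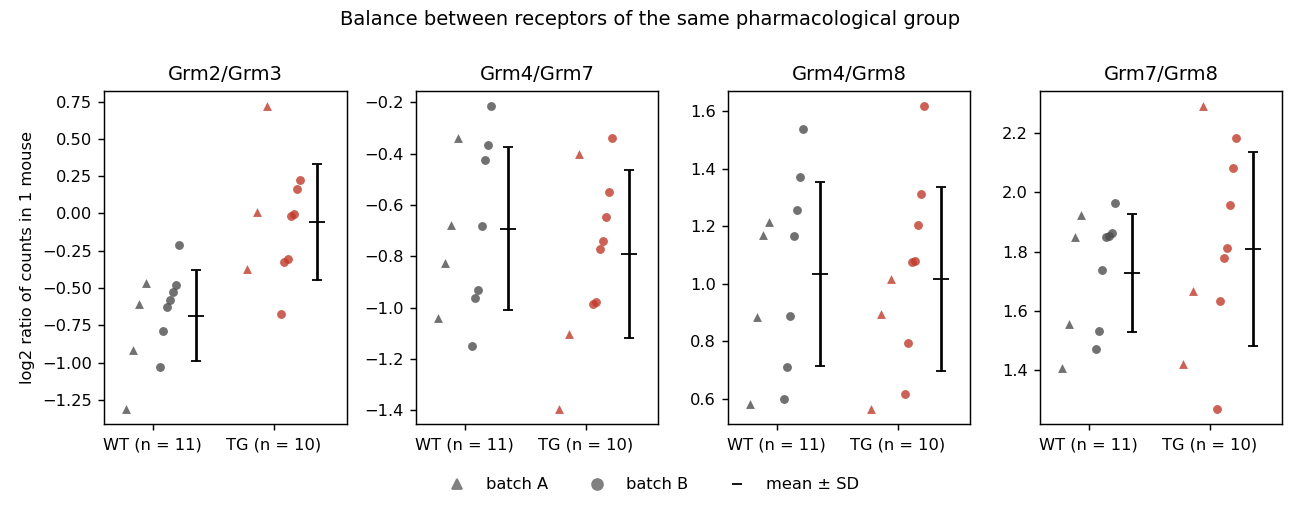
Log2 ratio of the counts of 2 receptors of the same group in every mouse (1 count added to each), with symbols as in the plot of normalized counts and the mean ± SD beside each group. The Grm2/Grm3 ratio of rNLS8 mice is shifted upward by 0.63 within batches, with 6 rNLS8 mice above all wild-type mice. The 3 ratios within group III differ by -0.11 (Grm4/Grm7), -0.03 (Grm4/Grm8) and 0.08 (Grm7/Grm8). The ranges of the genotypes overlap for all 4 ratios.

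Grm4 encodes mGluR4, a group III receptor of presynaptic terminals, and lies on chromosome 17 from 27422387 to 27521403 (minus strand). The lowest, median and highest values were 440, 622 and 816 normalized counts in wild-type and 263, 398 and 612 in rNLS8 mice. Of the rNLS8 mice, 8 of 10 were below all wild-type mice, and all 10 were below the wild-type median. The means of 615 ± 131 (SD, n = 11) and 408 ± 93.9 (SD, n = 10) put rNLS8 mice at 66.4% of wild-type. The log2 fold change was -0.62 (standard error 0.11, 95% interval -0.85 to -0.39, adjusted p = 6.50e-05 with edgeR) and -0.59 without T61340 and T60303 (adjusted p = 0.000393 with edgeR). It was -0.77 in batch A, with means of 556 and 322 normalized counts, and -0.55 in batch B, with means of 649 and 446, and was called in both. The table holds a second row for this gene, Grm4-2, with nearly the same counts and a log2 fold change of -0.60 (adjusted p = 9.02e-05 with edgeR). The level of Grm4 is therefore uncertain, because the counting could have split reads between both rows.

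Grm4 varied more than the other receptors among wild-type mice, with a standard deviation of 21.2% of the mean against 9.07% to 14.4%. Across the 21 mice, after removal of the genotype and batch means, it ran with the striatal markers Drd1 (r = 0.72), Adora2a (r = 0.72) and Rgs9 (r = 0.69), whereas Grm2 ran opposite to them (r = -0.66, -0.48 and -0.65). The correlations are given as descriptions. Drd1 was itself lower in rNLS8 mice, by a log2 fold change of -0.66 (adjusted p = 0.0362 with edgeR) and of -0.54 without T61340 and T60303 (adjusted p = 0.131 with edgeR), and Adora2a and Rgs9 were not called (-0.40 and -0.37). With the mean level of these 3 markers as a further covariate, an analysis chosen after these values were seen, the log2 fold change of Grm4 was -0.54 (adjusted p = 1.19e-05 with edgeR) and that of Grm2 was 0.18 (adjusted p = 0.0759 with edgeR). Those of Grm3, Grm7 and Grm8 were -0.38, -0.49 and -0.58 in that fit and remained called.

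Grm7 encodes mGluR7, the group III receptor of the presynaptic active zone with the lowest affinity for glutamate. It is among the longest genes tested, from 110645581 to 111567230 on chromosome 6 (plus strand). Wild-type mice had 819, 997 and 1153 normalized counts (lowest, median and highest) and rNLS8 mice 509, 701 and 824. A single rNLS8 mouse, at 824, reached the wild-type range, so that 9 of 10 rNLS8 mice were below all wild-type mice. The means were 979 ± 91.5 (SD, n = 11) and 697 ± 87.1 (SD, n = 10), or 71.2% of wild-type. The log2 fold change of -0.50 (standard error 0.059, 95% interval -0.62 to -0.38) had the lowest adjusted p-value of the 6 receptors (1.90e-07 with edgeR). It was -0.47 without T61340 and T60303 (adjusted p = 4.49e-07 with edgeR), -0.51 in batch A and -0.50 in batch B, where the means went from 907 to 628 and from 1020 to 726 normalized counts. The antisense gene Gm20387 overlaps a Grm7 exon by 130 bases and held 1060 reads over all 21 mice together, against a mean of 840 reads per mouse for Grm7. Whether the counting used strand is not given in the sources used here.

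Grm8 encodes mGluR8, a group III receptor of presynaptic terminals in fewer neurons, and lies on the minus strand of chromosome 6 from 27275119 to 28135178. It was the receptor with the fewest reads. The lowest, median and highest values were 238, 285 and 341 normalized counts in wild-type and 141, 203 and 253 in rNLS8 mice. Again 9 of 10 rNLS8 mice were below all wild-type mice and 10 of 11 wild-type mice were above all rNLS8 mice. The means were 295 ± 31.4 (SD, n = 11) and 199 ± 32.2 (SD, n = 10), which is 67.4% of wild-type. The log2 fold change was -0.58 (standard error 0.081, 95% interval -0.75 to -0.41, adjusted p = 2.98e-06 with edgeR) and -0.52 without T61340 and T60303 (adjusted p = 2.01e-05 with edgeR). Counting error alone would give a spread of 6.36% at this depth, and the measured spread was 10.7% of the mean in wild-type and 16.2% in rNLS8 mice. The means went from 282 to 182 normalized counts in batch A and from 302 to 206 in batch B, and the gene was called in both.

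These 3 group III transcripts fell by 0.62 (Grm4), 0.50 (Grm7) and 0.58 (Grm8) on the log2 scale. Their sum was 1889 ± 173 normalized counts in wild-type mice (1585 to 2109) and 1304 ± 155 in rNLS8 mice (1084 to 1586), and the ranges touched at their ends. The log2 ratio of Grm4 to Grm7 differed between genotypes by -0.11, that of Grm4 to Grm8 by -0.03 and that of Grm7 to Grm8 by 0.08 (adjusted p = 0.696, 0.83 and 0.696, exact permutation within batch). No balance within group III passed the test, which does not show that the 3 fell equally.

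**Figure D3:**
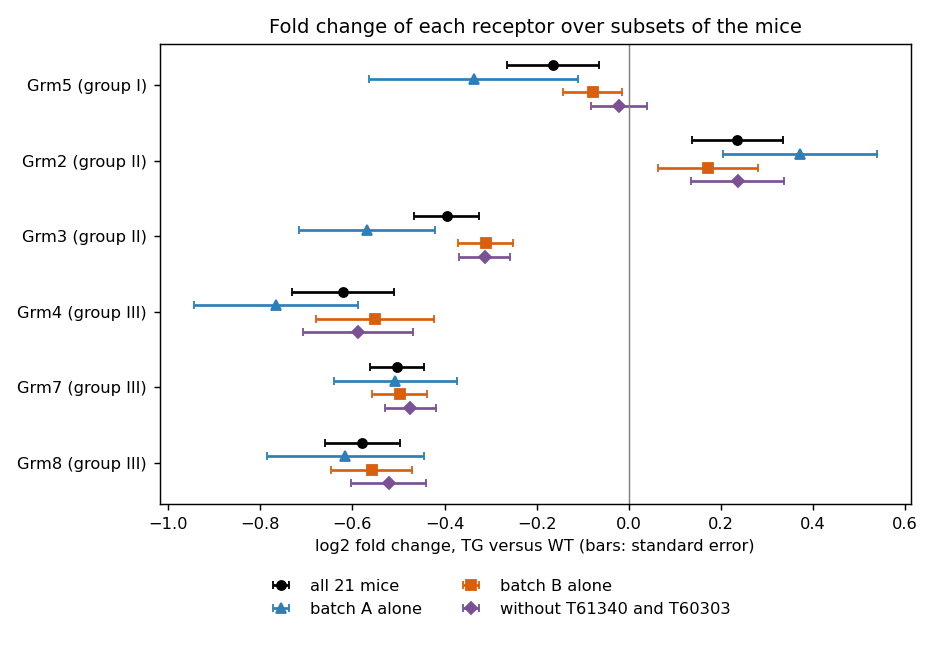
Log2 fold change of each receptor between rNLS8 (TG) and wild-type (WT) mice with its standard error, in all mice, in each batch alone and without the mice T61340 and T60303. Grm3, Grm4, Grm7 and Grm8 are below 0 in all 4 sets, Grm2 is above 0, and Grm5 moves from -0.16 to -0.02 when both mice are left out.

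Whether the genotype difference itself changed between batches was tested with an interaction term. It was called for 0% of the 18248 genes by edgeR (1030 at an unadjusted p under 0.05), a test that has less power than the main comparison. Among the receptors, the difference (B minus A, log2) was 0.29 for Grm3 (unadjusted p = 0.0496, adjusted p = 0.875 with edgeR). For the other 5 it lay between -0.17 (Grm2) and 0.29 (Grm5), with unadjusted p-values of 0.182 or more with edgeR.

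Levels of different receptors were compared per kilobase of exon, from the merged exons of all GENCODE transcripts of a gene. This length was 3.049 kb for Grm3, from 1 transcript, and 10.247 kb for Grm5, from 7 transcripts. Which exons are in use was not examined, so the order depends on these lengths, and the spread among mice does not cover that uncertainty. Before division by length, wild-type mice had 3746 normalized counts for Grm5 and 1466 for Grm3. In wild-type mice, Grm3 was highest at 481 ± 53.4 normalized counts per kilobase, followed by Grm5 at 366 ± 33.2, Grm2 at 187 ± 26.9, Grm7 at 166 ± 15.5, Grm4 at 103 ± 21.8 and Grm8 at 29.8 ± 3.18 (SD, n = 11 each). The neighbors Grm2 and Grm7 did not differ beyond their spread. In rNLS8 mice (SD, n = 10 each) Grm3 was at 364 ± 41.3 and Grm5 at 332 ± 75, which no longer differed beyond their spread. Grm2 at 220 ± 40.3 was above Grm7 at 118 ± 14.8 beyond their spread, with Grm4 at 68.3 ± 15.7 and Grm8 at 20.1 ± 3.25 normalized counts per kilobase. By these rows the order of the 6 levels was the same in both genotypes. With the rows Grm4 and Grm4-2 added, Grm4 would be at 203 ± 43.4 in wild-type and 135 ± 29.8 in rNLS8 mice, above Grm2 in the former and below it in the latter, so the place of Grm4 in the order is uncertain.

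Which receptors vary together among mice of the same genotype and batch was described by the correlation of their log2 levels after both were removed. Over 21 mice Grm3 ran with Grm5 (r = 0.75) and with Grm7 (r = 0.72), and Grm5 with Grm7 (r = 0.59). Without T61340 and T60303 these values were 0.29, 0.60 and 0.42, so the tie of Grm3 to Grm5 rested largely on those mice. For Grm4 the values ran from -0.32 (with Grm2) to 0.14 (with Grm8), and these were -0.54 and -0.05 without both mice. Among all genes with at least 50 counts per mouse, those most like Grm5 were Atp8a1 (r = 0.97), a phospholipid flippase, and Dnajb14 (r = 0.97), a chaperone of the endoplasmic reticulum. Those most like Grm2 were Nr2f1 (r = 0.89), a patterning factor of the cortex, and the potassium channel gene Kcnc4 (r = 0.89). Grm3 was most like Foxn2 and Gpm6b (r = 0.89 each), which dropped to 0.73 and 0.77 without both mice. Grm4 was most like Sorcs2 (r = 0.83) and Sez6 (r = 0.82), Grm7 most like Trpm7 (r = 0.82) and Lig3 (r = 0.81), and Grm8 most like Zfp87 (r = 0.87) and Kat7 (r = 0.78). Without both mice, r was 0.92 and 0.88 for the genes named with Grm5, 0.89 and 0.92 with Grm2, and 0.80 and 0.79 with Grm4. It was 0.71 and 0.73 with Grm7, and 0.81 and 0.73 with Grm8. These genes were picked as the highest of many correlations, which by itself raises r, and no test was made. A like course among mice did not mean a like difference between genotypes, as Kcnc4 had a log2 fold change of -0.39 where Grm2 had 0.24.

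The genes through which these receptors act were examined as lists. In the phospholipase C branch of group I signaling, 5 of 9 genes were lower, 1 was higher and 3 did not pass, where 21.7% of all genes tested were called lower. The lower genes included Prkcb (-1.06), a protein kinase C, which fell from 23162 ± 1801 to 11239 ± 1413 normalized counts with no overlap between the genotypes. Others were Itpr1 (-0.76), the calcium release channel opened by inositol trisphosphate, Prkca (-0.65) and Plcb1 (-0.58), the phospholipase of the forebrain (adjusted p between 8.03e-13 and 3.35e-08 with edgeR). Of the G proteins at the head of this branch, Gnaq was lower by a small amount (-0.19) and Gna11 was higher (0.23). With T61340 and T60303 left out, Gnaq was at -0.13 and no longer called (adjusted p = 0.0722 with edgeR). The median over the list was -0.19.

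Of 10 receptor partners, 3 were lower, 3 higher and 4 not called, close to the 21.7% lower and 23% higher among all genes tested. Homer1 (-0.57) and Homer2 (-0.43), the scaffolds that tether Grm5, were lower, at 3096 ± 341 against 2073 ± 382 and at 1763 ± 291 against 1301 ± 261 normalized counts. Homer3 was higher (0.23, adjusted p = 0.0231 with edgeR) at a far lower count, and Ncdn, which binds Grm5, was lower (-0.28). Elfn1 and Pick1, partners of Grm7 across the synapse and inside the terminal, were at -0.04 and 0.07 and were not called, and Elfn2 was higher by 0.15. Elfn2 and Grip1 were no longer called without T61340 and T60303 (0.12 and 0.13, adjusted p = 0.0925 and 0.0518 with edgeR), which left 1 partner higher.

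In the Gi/o branch, 8 of 14 genes were lower, 2 higher and 4 not called, with a median of -0.16, where 21.7% of all genes tested were called lower and 23% higher. Rgs4 (-0.98), which speeds the shut-off of Gi and Gq signals, had 8918 ± 971 normalized counts in wild-type and 4569 ± 632 in rNLS8 mice. Gnai1 (-0.77) fell while Gnai2 (0.42) rose (adjusted p = 3.63e-10 and 9.38e-08 with edgeR). Gnb5 (-0.53), the G protein beta subunit that pairs with the RGS7 family, was lower, and Gnao1, the most abundant alpha subunit of the list by normalized counts, was lower by 0.20 on the log2 scale. The GIRK potassium channel genes Kcnj3, Kcnj6 and Kcnj9 were at -0.03, -0.07 and 0.08 and none was called. Among the 6 genes of receptor desensitization, Grk6 (-0.19) and Arrb1 (-0.12) were lower and 4 were not called. Of all genes tested, 21.7% were called lower and 44.7% in either direction. Without T61340 and T60303, Arrb1 (-0.09, adjusted p = 0.0561 with edgeR) and Gnaz of the Gi/o branch were no longer called, and Grk2 was (-0.12, adjusted p = 0.0482 with edgeR).

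Of 8 genes that supply or clear glutamate, 5 were lower and 3 were not called, where 21.7% of all genes tested were called lower. Slc17a6, a vesicular glutamate transporter of subcortical neurons, fell from 641 ± 184 to 398 ± 173 normalized counts (-0.74, adjusted p = 0.000719 with edgeR), with overlap between the genotypes, and Slc17a7, the cortical one, was at 0.06 (adjusted p = 0.561 with edgeR). The astrocyte genes Slc1a2 (-0.32), which clears glutamate from the synapse, and Glul (-0.19), which turns it into glutamine, were lower as well, as was the neuronal transporter gene Slc1a1 (-0.17), which was no longer called without T61340 and T60303 (-0.13, adjusted p = 0.0883 with edgeR). In the pathway of N-acetylaspartylglutamate, the peptide that activates Grm3, 1 of 6 genes was called, below the 44.7% of all genes, namely the ligase gene Rimklb (0.31, adjusted p = 4.07e-06 with edgeR), while the peptidase gene Folh1 was at 0.10. Among 7 other class C receptor genes, Gpr158 (-0.37) and the GABA-B receptor subunit gene Gabbr1 (-0.17) were lower and 5 were not called. For comparison, 21.7% of all genes tested were called lower. Slc1a1, Kcnj6 and the marker Map2 also have a second row in the table, as Grm4 does, and Gabbr1 and the marker Aif1 have 3 further rows each, so their levels are uncertain too.

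**Figure D4:**
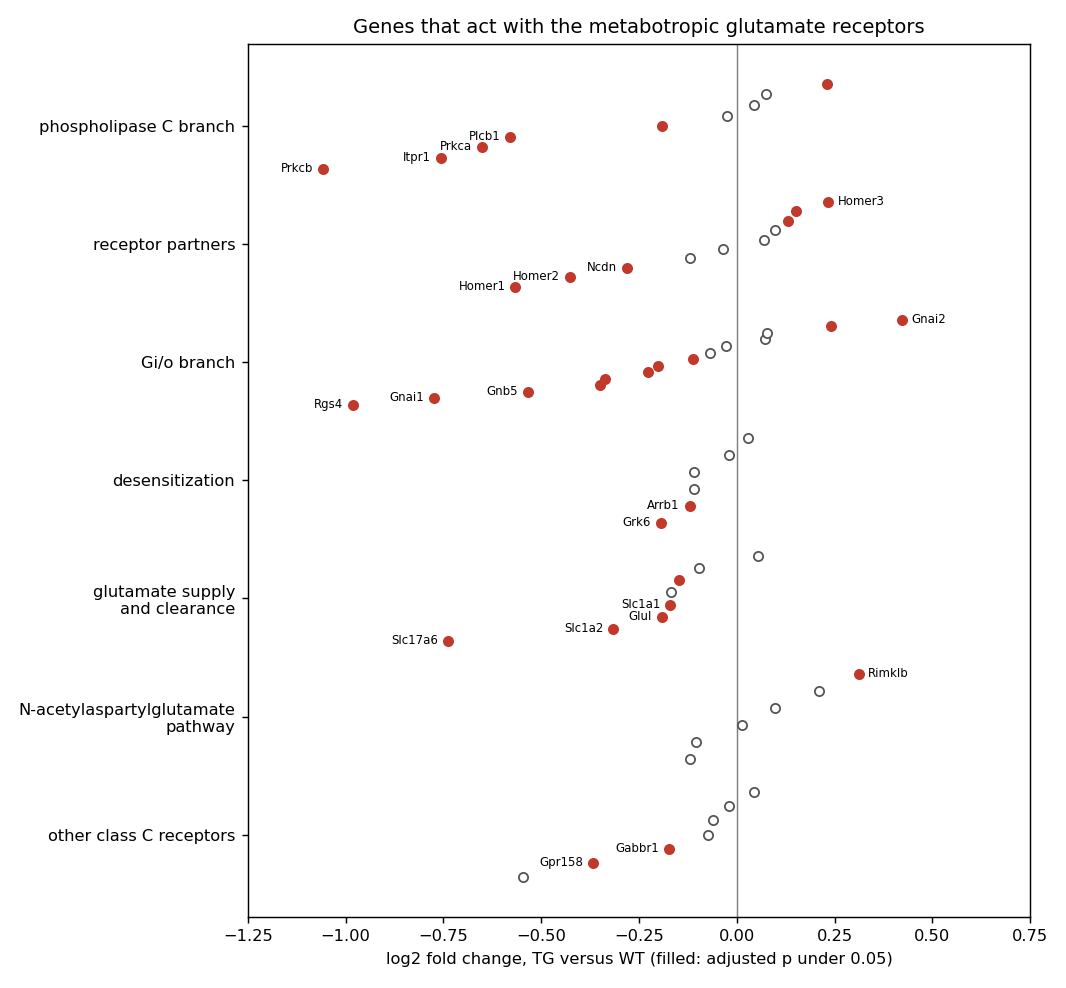
Log2 fold change between rNLS8 (TG) and wild-type (WT) mice of each gene in the 7 lists of genes acting with the receptors, with filled points for an adjusted p under 0.05 and the names of the called genes with the largest change. Calls lie on both sides of 0 for receptor partners, the phospholipase C branch and the Gi/o branch, and all calls lie below 0 for desensitization, glutamate supply and clearance, and other class C receptors.

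Markers of cell types moved in the same mice, and their part in the receptor differences was not tested. Of 5 neuronal markers, 3 were lower (Snap25 -0.75, Syt1 -0.53 and Map2 -0.44) and Rbfox3 and Tubb3 were not called (-0.10 and -0.06). Their summed level was 98674 to 127497 normalized counts in wild-type and 67846 to 86993 in rNLS8 mice. All 6 markers of inhibitory neurons were lower, from -0.16 (Sst) to -0.45 (Gad1), with summed levels of 14032 to 23105 against 10181 to 16936 normalized counts. Among markers of excitatory neurons, Camk2a (-0.65) and Neurod6 (-0.28) were lower and Slc17a7 was not called. Of the 6 astrocyte markers, which bear on Grm3, 4 were lower (Aqp4 -0.26, Gja1 -0.27, Aldh1l1 -0.18 and Slc1a3 -0.15), S100b was not called and Gfap was higher (1.03). The astrocyte sum was 25356 to 31921 normalized counts in wild-type and 24780 to 36544 in rNLS8 mice. The 5 oligodendrocyte markers were not called, between -0.02 and 0.13, and of 5 microglial markers 3 (Tmem119, Aif1 and Csf1r) were higher and 1, P2ry12, was lower. When T61340 and T60303 were left out, Rbfox3 was called lower (-0.15, adjusted p = 0.0171 with edgeR), and Gad2 (-0.24, from -0.32) and the microglial markers Tmem119 (0.14, from 0.18), Aif1 (0.31, from 0.47) and Csf1r (0.09, from 0.13) kept their direction but were no longer called. No defining marker of these cell types was at 0 in any mouse.

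Genomic length was not used to choose the receptors, and 5 of the 6 are long genes. Grm3, Grm5, Grm7 and Grm8 span 239.6, 550.7, 921.7 and 860.1 kb and were longer than 95.5%, 98.9%, 99.6% and 99.5% of the tested genes with a known span, and Grm4 was longer than 85.6%. Grm2, with the opposite direction, was longer than 35.7%. Over all genes, the share called lower was 18.9% for spans under 20 kb, 22.7% for 20 to 100 kb, 30.1% for 100 to 200 kb and 38.0% for 200 kb or more, while the share called higher went from 26.8% over 23.4% and 13.2% to 7.36%. A span was found for 88.5% of the genes tested, and this view was chosen after the fold changes were seen and is given without a test. The shares come from the fit with all mice. They were not worked out without T61340, the mouse whose deviation fell with exon length. Against the 38.0% among 937 genes of 200 kb or more, 3 of the 4 receptors of that length were called lower. Grm5, the fourth, had log2 fold changes of -0.34 in batch A and -0.08 in batch B and was called in neither.

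**Figure D5:**
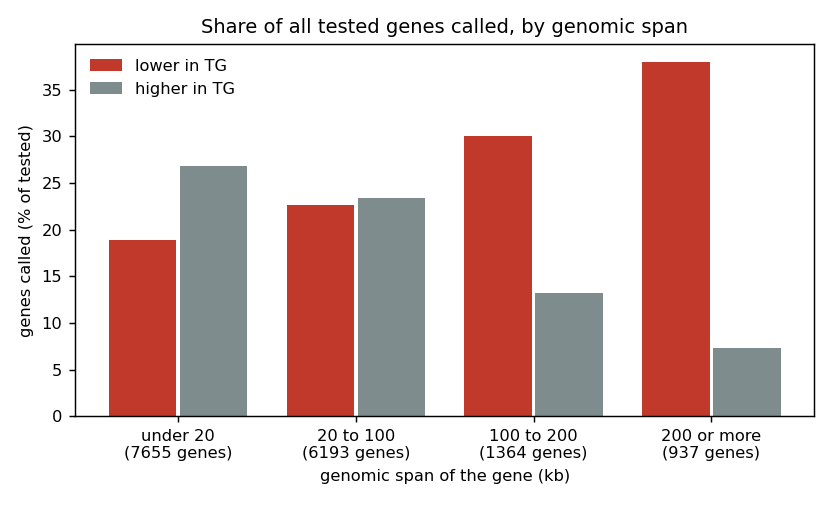
Percent of the tested genes called lower or higher in rNLS8 (TG) mice, by genomic span in kb, with the number of genes under each bin. The share called lower is 18.9% in the shortest and 38.0% in the longest bin, where Grm3, Grm5, Grm7 and Grm8 belong.

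TDP-43 binds UG repeats in RNA, so the annotated transcripts of the receptors were searched for runs of alternating T and G. The longest run was 8 bases in Grm2 and 6 bases in each of the other 5 receptors, lengths that 28.5% and 77.5% of 14167 tested genes reached or passed. Introns were not searched.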

How the data were processed

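Per the labels and the study's methods, RNA of neocortex with RIN values above 7 was made into mRNA libraries at BGI, sequenced paired-end and aligned to GRCm38. The deposited values are raw counts, whole numbers of reads for each gene symbol. The submitters' processing notes name HISAT, HISAT2, Bowtie2, Bowtie and RSEM without their role, and the counting program is not given in the sources used here. Genotype, batch and mouse number came from the sample labels. Each sample was a separate mouse, and no sample or sample column was left out.

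The analysis used edgeR 4.0.16 in R 4.3.3. Low counts were filtered with filterByExpr (minimum count 10, minimum total 15), and the remaining counts were normalized by TMM and tested with the quasi-likelihood F-test with batch and genotype in the model, with Benjamini-Hochberg adjustment over the 18248 genes tested and a threshold of 0.05. Standard errors were obtained as the fold change on the log2 scale divided by the square root of F. For normalized counts, each count was divided by the effective size of its library and multiplied by the mean of these sizes. Ratios of receptors used log2 of counts plus 1 and exact permutation of genotype within batch. Correlations used log2 CPM with a prior count of 2. All tests were two-sided. Reads carried no molecular identifiers.

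All 6 receptors are named, and of each pathway list the up to 4 called genes with the largest change and at least 50 counts per mouse, with a few further members of a list or marker genes, which were chosen after their values were seen. Some genes of the lists are not reported here and were left out of their counts. The members and lists were chosen with earlier results of these data known. Alternatives were DESeq2 1.42.0 and edgeR with and without batch, other scalings and filters, leaving out the 2553 rows of further gene copies, each batch alone, the level of Xist as a covariate, and leaving out single mice or both T61340 and T60303. Adding the rows Grm4 and Grm4-2, and the striatal covariate, were chosen after seeing the data. The procedures were tested on simulated counts with known changes. Promoter sequences and gene spans came from RefSeq (GRCm38.p6) and GENCODE M21.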

Additional observations from a re-analysis of the deposited data

Results flagged for a closer look

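Grm3 in rNLS8 mice contained a value far from the others. Mouse T61340 had 803 normalized counts and the next lowest rNLS8 mouse 1055, a gap of 0.577 of the whole range of the 10 mice, which is above the limit for a group of this size. The 6 receptors and the 4 ratios were examined in rNLS8 mice, 10 sets of values in all, and chance flags about 1 in 20 such sets. Without T61340 the log2 fold change of Grm3 was -0.34 (adjusted p = 1.78e-05 with edgeR) against -0.40 with it. The same mouse was lowest for Grm5 and Grm7, with gaps of 0.391 and 0.319 of the range.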

How the results depend on the processing

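Grm3, Grm4, Grm7 and Grm8 stayed lower and past the threshold in all 17 alternatives and all 21 fits that left out 1 mouse, with log2 fold changes over the alternatives of -0.57 to -0.31, -0.77 to -0.54, -0.52 to -0.43 and -0.62 to -0.50. Leaving out 1 mouse gave -0.42 to -0.34, -0.69 to -0.57, -0.52 to -0.46 and -0.62 to -0.53. Grm2 passed the threshold with scaling to library size only (0.31, adjusted p = 0.00873), with no filter (0.25, adjusted p = 0.0428), with at least 10 counts in every mouse (0.24, adjusted p = 0.0487), without rows of further copies (0.24, adjusted p = 0.04996) and without T60303 (0.28), all with edgeR, and leaving out 1 mouse gave 0.19 to 0.28. For Grm5, leaving out 1 mouse gave -0.24 to -0.0758, and it passed without T61342 only.

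The number of genes called was 2195 in batch A alone, which has fewer mice, against 8154 in all mice, and 7805 to 8363 when 1 mouse was left out, with 4 to 5 receptors called. Scaling to library size only moved the median gene to 0.076 and the share of calls that were higher from 51.4% to 67.9%. The Grm2/Grm3 ratio difference was 0.94 in batch A alone (adjusted p = 0.114, exact permutation) and 0.52 to 0.70 when 1 mouse was left out. The Grm4/Grm8 difference turned to 0.0243 in batch B alone, and was -0.0884 to 0.0198 when 1 mouse was left out. When 1 mouse was left out, the Grm4/Grm7 and Grm7/Grm8 differences were -0.19 to -0.04 and 0.0025 to 0.14. Over the alternatives they were -0.25 to -0.04 and 0.04 to 0.11. The batch interaction of Grm7 turned to -0.0900 without T61340 and that of Grm8 to -0.0656 without T60303. The causes were not tested. No paired analysis was possible because the labels give each mouse its own number and no pairing across genotypes.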
